A study of Mus musculus with 8 samples.

Results

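The smooth muscle and myofibroblast contractile genes described here are 10 genes of the mouse, *Acta2*, *Tagln*, *Cnn1*, *Myh11*, *Myl9*, *Tpm1*, *Tpm2*, *Des*, *Lmod1* and *Smtn*. They were chosen by gene name, and all 10 were found among the 54532 genes measured. The cells were MICFs, cardiac fibroblasts taken from the infarcted area of C57BL/6 mouse hearts, which the study describes as myofibroblasts. All 4 groups carried the same doxycycline-inducible lentiviruses, a polycistronic MGT construct (*Mef2c*, *Gata4* and *Tbx5*), *Myocd*, *Sall4* and eGFP, and all received doxycycline. *In vivo* samples were transduced cells injected into the left ventricle of C57BL/6 males given a coronary ligation (bought at 8 weeks of age) and treated daily with tacrolimus, methylprednisolone and mycophenolate mofetil. *In vitro* samples were the same cells kept in culture. The eGFP+ cells were sorted after 1 week or 2 weeks, and each of the 4 groups has 2 libraries of sequenced mRNA. The labels do not tie a library to an animal or a well, so the p-values below measure only the spread between these libraries, which may be technical. The study's reprogramming medium holds SB431542, an inhibitor of TGF-β receptors, and baricitinib, a JAK inhibitor, so that the effect of the heart, the medium and the immunosuppressants cannot be told apart.

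These genes encode the parts of the contractile apparatus of smooth muscle. Fibroblasts that become myofibroblasts after injury switch on several of them, with *Acta2* as the usual marker, whereas *Myh11* and *Lmod1* are more typical of mature smooth muscle and *Des* is shared with cardiomyocytes. Serum response factor (SRF) binds CArG boxes in many of their promoters, and its cofactor myocardin, the product of *Myocd*, is a strong activator of the smooth muscle programme. Tension, actin assembly and TGF-β raise the same genes, in part through the cofactors encoded by *Mkl1* and *Mkl2*. The lentiviral *Myocd* was present in every group, so the comparisons below are between sites and times and not between cells with and without it.

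Levels are given as FPKM (fragments scaled by gene length and by library size). Genes and libraries are compared on this scale, and some of the comparisons depend on the scaling, as given below. The libraries held from 12304242 to 14546904 fragments assigned to genes. Groups were compared with limma on log2(FPKM + 0.1), and p-values were adjusted by the Benjamini-Hochberg method over 15708 genes, those that reached 0.5 FPKM in 2 or more libraries, with all 10 contractile genes among them. A gene was counted as changed at an adjusted p under 0.01 and a change of more than 2-fold. Because most of the contractile genes moved by less than that, the number with an adjusted p under 0.05 and no fold minimum is given as well. The FPKM already contain a scaling between libraries, under which all tested genes together had a median log2 fold change (*in vivo* over *in vitro*) of -0.0058 at 1 week and -0.0034 at 2 weeks. Without that scaling, each library was still divided by its total of fragments assigned to genes. The words unscaled and without scaling have this sense below. The medians were then -0.34 and -0.33. Of the genes counted as changed, 36.7% in place of 60.6% were higher *in vivo* at 1 week. At 2 weeks it was 32.9% in place of 52.8%.

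Most of the contractile genes were lower *in vivo* than *in vitro*. The estimated difference was nearer to 0 at 2 weeks than at 1 week for *Myh11* and *Tagln*, about the same for *Lmod1* and lower for 6 others, of which *Cnn1* was above 0 at 1 week, while *Smtn* was above 0 at both weeks. Their summed level lay between 971.4 and 1037 FPKM in the *in vivo* samples and between 1275 and 1345 FPKM in the *in vitro* samples at 1 week, and between 823.4 and 868.2 FPKM against 1558 and 1630 FPKM at 2 weeks. *Acta2* alone made up 48.5 to 60.9% of this sum. At 1 week 1 of the 10 genes, *Myh11*, was changed and lower, where 5.07% of all tested genes were lower, and no contractile gene passed in the other direction (7.79% of all tested genes were higher, 12.9% either way). With an adjusted p under 0.05 and no fold minimum, 7 of 10 were lower (20.6% of all tested genes) and 1, *Smtn*, was higher (21.4%, and 42.0% either way). At 2 weeks 2 of 10, *Tpm1* and *Des*, were changed and both were lower (8.05% of all tested genes were lower, 9.02% higher, 17.1% either way). At an adjusted p under 0.05, 9 of 10 were lower (25.2% of all tested genes) and 0 were higher (24.6%, and 49.8% either way). The median log2 fold change of the 10 genes was -0.48 at 1 week and -0.91 at 2 weeks. With libraries scaled only to their fragments on genes, 2 contractile genes were changed at 1 week and 7 at 2 weeks, all lower. Of all tested genes 9.93% and 13.3% were then lower (5.76% and 6.54% higher). In these sorted populations, fewer cells of a type and less RNA per cell cannot be told apart.

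**Figure D1:**
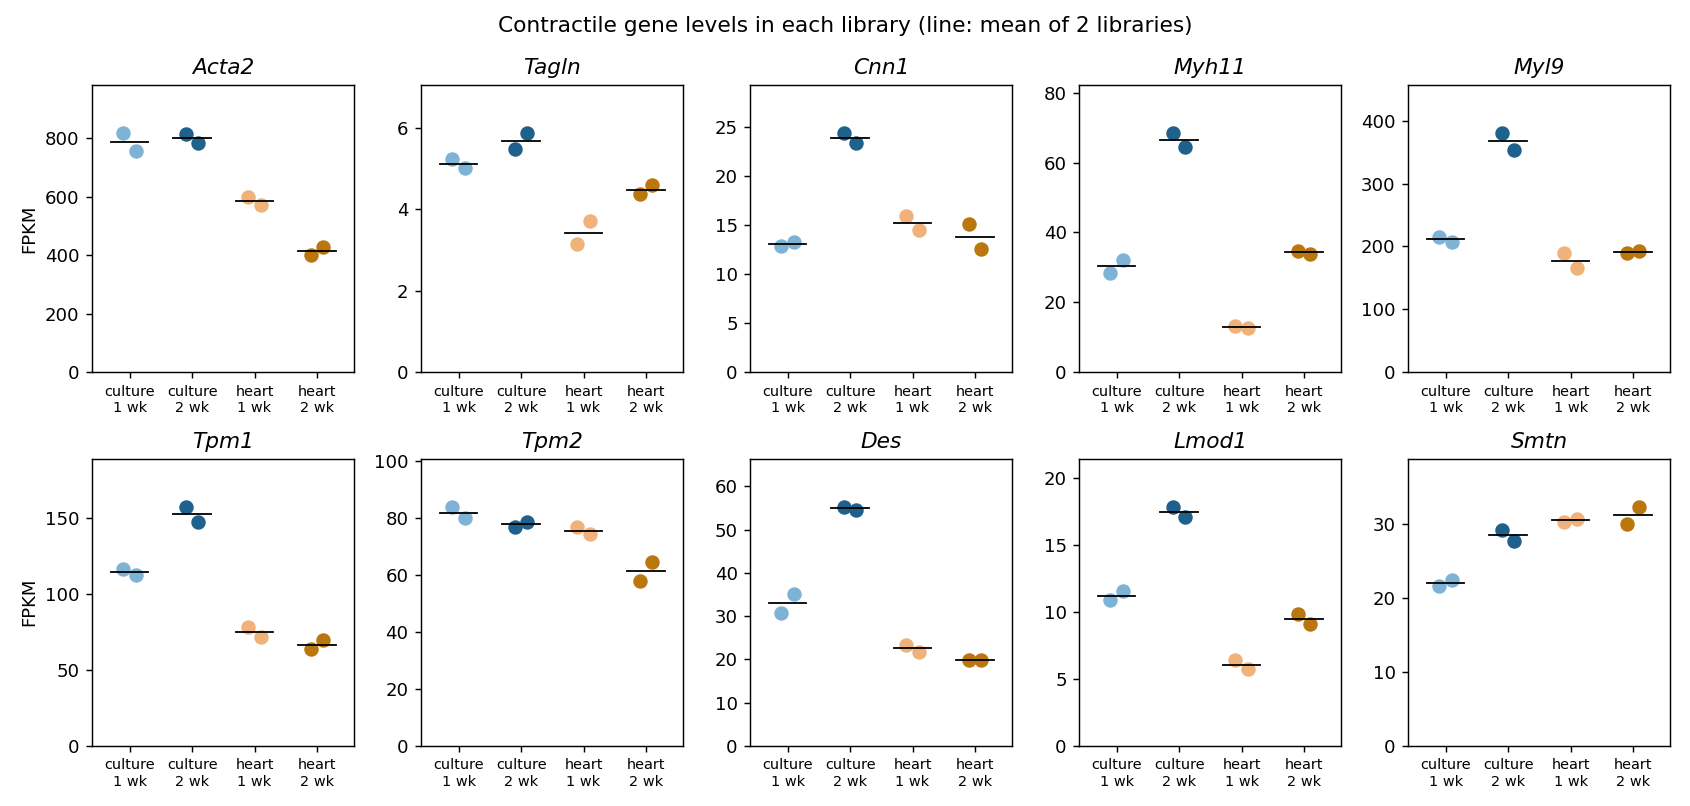
FPKM (vertical axes, each from 0) of the 10 contractile genes in the 8 libraries, by site and week, with each point 1 library and each line the mean of 2. *Acta2*, *Tpm1* and *Des* sit lower in both heart groups than in both culture groups, *Myh11* is higher at 2 weeks than at 1 week at both sites, and *Smtn* is lowest in culture at 1 week.

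*Acta2* encodes smooth muscle α-actin, the actin of smooth muscle stress fibres, and was the most abundant of the set in every library. It lies on GRCm38 at chr19:34241090-34255336, minus strand. Its level was 599.9 and 571.8 FPKM *in vivo* and 819.2 and 755.8 FPKM *in vitro* at 1 week. At 2 weeks it was 399.2 and 428.4 FPKM *in vivo* and 814.0 and 785.4 FPKM *in vitro*. The culture libraries thus kept a like level at both weeks, the heart libraries were lower at 1 week and lower again at 2 weeks, and no *in vivo* library reached an *in vitro* library. The log2 fold change, *in vivo* over *in vitro*, was -0.43 ± 0.08 (SE) at 1 week (limma, adjusted p = 0.00482) and -0.95 ± 0.08 at 2 weeks (adjusted p = 9.7e-05), which is 1.93-fold lower and just short of the 2-fold minimum. At 2 weeks it passed that minimum without *in vivo* replicate 2 (-1.002), when values were quantile normalized (-1.44) and when the scaling was taken out (-1.28).

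Myosin is the motor of the apparatus, and 2 of its smooth muscle subunits are in the set. *Myh11*, on chr16:14194535-14291372, minus strand, encodes the smooth muscle myosin heavy chain. Its level was 13.2 and 12.6 FPKM *in vivo* and 28.5 and 32.0 FPKM *in vitro* at 1 week, and 34.6 and 33.9 FPKM *in vivo* and 68.5 and 64.6 FPKM *in vitro* at 2 weeks. The heart libraries at 2 weeks were therefore just above the culture libraries at 1 week, and the sites did not overlap at either time. *Myh11* was lower *in vivo* by a log2 fold change of -1.22 ± 0.07 (SE) at 1 week (limma, adjusted p = 3.2e-05), or 2.32-fold, and it was past the threshold at that week under every alternative tried. At 2 weeks the log2 fold change was -0.96 ± 0.07 (adjusted p = 7.0e-05), a 1.94-fold difference. *Myl9*, on chr2:156775420-156781658, plus strand, encodes the regulatory light chain whose phosphorylation starts contraction. It was the second most abundant of the set, at 189.7 and 165.0 FPKM *in vivo* and 215.3 and 207.4 FPKM *in vitro* at 1 week, and at 189.4 and 193.3 FPKM *in vivo* and 381.0 and 353.9 FPKM *in vitro* at 2 weeks. All 4 *in vivo* libraries and the earlier culture libraries were close together, and the later culture libraries stood above them. The log2 fold change was -0.26 ± 0.08 at 1 week (limma, adjusted p = 0.0423) and -0.94 ± 0.08 at 2 weeks (adjusted p = 0.000128).

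Short stretches of promoter are shown for the members in which letters of the 2 best-known control elements of this programme were found, since 9 of the 10 genes had an adjusted p under 0.05 in the same direction at 2 weeks. The 250 bases before the RefSeq start (GRCm38.p6) were searched in 8 of the 10 genes, which are those the RefSeq table holds. *Tagln* and *Myh11* were not matched. The CArG box was searched as such and, as a CArG-like box, with at most 1 of its 6 central A or T positions replaced. The MCAT element, CATTCC, which TEAD factors bind, was searched on both strands, where its reverse complement reads GGAATG. Each line gives 30 bases, 5′ to 3′ on the strand of the gene, with the element in capitals and its first base counted upstream from the RefSeq start.
*Acta2* CArG-like box, 84 bases upstream (chr19:34255438-34255467, minus strand): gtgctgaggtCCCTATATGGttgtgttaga
*Acta2* CArG-like box, 34 bases upstream (chr19:34255388-34255417, minus strand): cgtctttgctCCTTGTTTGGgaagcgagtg
*Myl9* CArG box, 161 bases upstream (chr2:156775293-156775322, plus strand): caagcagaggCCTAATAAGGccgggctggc
*Myl9* CArG-like box, 99 bases upstream (chr2:156775355-156775384, plus strand): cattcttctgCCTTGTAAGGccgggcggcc
*Acta2* MCAT element, 146 bases upstream (chr19:34255502-34255531, minus strand): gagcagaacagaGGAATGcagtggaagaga
*Tpm1* MCAT element, 56 bases upstream (chr9:67049252-67049281, minus strand): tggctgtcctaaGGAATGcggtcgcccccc
*Lmod1* MCAT element, 130 bases upstream (chr1:135324671-135324700, plus strand): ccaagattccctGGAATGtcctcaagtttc
*Smtn* MCAT element, 222 bases upstream (chr11:3539497-3539526, minus strand): cggtttgtggcaCATTCCggactttggctt
The CArG box was found in 1 of the 8 windows and in 1.47% of the 32817 RefSeq promoter windows of the same length. The CArG-like box, which includes it, was in 2 of 8 and in 8.60% of all windows, and the MCAT element was in 4 of 8 and in 12.6%. None of these letters was found in the windows of *Cnn1*, *Tpm2* and *Des*, which says only that they are not in these 250 bases. For *Smtn* the whole window, and for *Tpm1* and *Tpm2* 193 and 211 of its bases, lie inside the gene as the deposited table places it, since other transcripts start further upstream. For *Cnn1*, *Myl9* and *Lmod1*, 37, 44 and 6 bases of the window also lie inside the gene. The *Acta2* window is also transcribed in part in 1 GENCODE transcript. A match of letters is a description and not a measured binding site. At 2 weeks genes with and without a match were lower *in vivo*, and *Des*, with none, had the largest difference of the set. *Smtn*, with an MCAT element, was above 0 on the log2 scale (0.13). Whether the matches have a part in these levels was not tested.

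**Figure D2:**
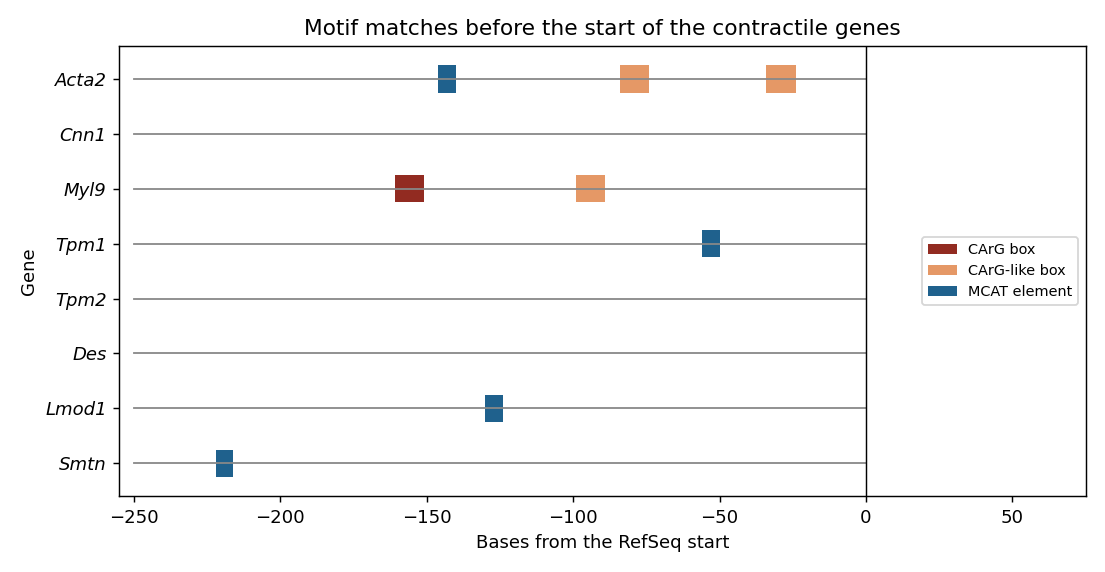
Position, in bases from the RefSeq start at 0 (horizontal axis), of CArG boxes, CArG-like boxes and MCAT elements in the 250 bases before the start of 8 contractile genes (1 line each). *Acta2* and *Myl9* each hold 2 CArG or CArG-like boxes, and *Cnn1*, *Tpm2* and *Des* hold no match.

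*Tagln*, *Cnn1* and *Smtn* encode proteins that bind actin filaments and tune contraction. *Tagln* (transgelin, SM22α), on chr9:45929619-45936058, minus strand, is normally among the most abundant smooth muscle transcripts, yet it was the lowest of the 10 in every library. Its level was 3.14 and 3.71 FPKM *in vivo* and 5.23 and 5.02 FPKM *in vitro* at 1 week, and 4.37 and 4.60 FPKM *in vivo* and 5.49 and 5.88 FPKM *in vitro* at 2 weeks, from 73 to 160 fragments. Of the exon bases of *Tagln*, 67.9% overlap exons of opposite-strand genes, 1241 bases an antisense transcript named *Gm48529* and 108 bases *Pcsk7*. Whether the counting used strand is not given in the sources used here, so fragments of these genes may not have been told apart, and the level of *Tagln* is uncertain. *Gm48529* itself had 11 to 51 fragments per library. As counted, both *in vivo* libraries of *Tagln* were below both *in vitro* libraries at each week, with log2 fold changes of -0.57 ± 0.11 (SE) at 1 week (limma, adjusted p = 0.00505) and -0.34 ± 0.11 at 2 weeks (adjusted p = 0.0358).

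*Cnn1* (calponin, an inhibitor of the myosin ATPase), on chr9:22099216-22109630, plus strand, did not keep the same order at both times. Its level was 15.9 and 14.5 FPKM *in vivo* against 12.9 and 13.2 FPKM *in vitro* at 1 week, and 15.02 and 12.6 FPKM *in vivo* against 24.4 and 23.3 FPKM *in vitro* at 2 weeks. The heart libraries were slightly above the culture libraries at first and clearly below them later. The log2 fold change was 0.22 ± 0.10 (SE) at 1 week (limma, adjusted p = 0.117, turning to -0.13 with unscaled libraries) and -0.79 ± 0.10 at 2 weeks (adjusted p = 0.000601). *Smtn* (smoothelin, a marker of contractile smooth muscle), on chr11:3517523-3540612, minus strand, was the one gene of the set with an adjusted p under 0.05 in the higher direction. It stood at 30.4 and 30.8 FPKM *in vivo* against 21.7 and 22.4 FPKM *in vitro* at 1 week, and at 30.04 and 32.4 FPKM *in vivo* against 29.2 and 27.8 FPKM *in vitro* at 2 weeks. All 4 heart libraries had a like level, which the culture libraries approached at 2 weeks. The log2 fold change was 0.47 ± 0.06 at 1 week (limma, adjusted p = 0.00115) and 0.13 ± 0.06 at 2 weeks (adjusted p = 0.125). Without the scaling between libraries these values were 0.13, with an adjusted p of 0.193, and -0.20. An adjusted p under 0.05 for a higher *Smtn* at 1 week was thus lost without that scaling. It was kept with quantile normalization. Overlap with opposite-strand exons covers 16.3% of the *Smtn* exon bases.

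Tropomyosins lie along the actin filament and control access of myosin, and leiomodins start new filaments. *Tpm1*, on chr9:67022590-67049406, minus strand, makes muscle and non-muscle tropomyosins from 1 gene, with 21 annotated transcripts that the gene-level FPKM cannot separate. Its level was 78.5 and 71.3 FPKM *in vivo* against 117 and 112 FPKM *in vitro* at 1 week, and 63.4 and 69.4 FPKM *in vivo* against 158 and 147 FPKM *in vitro* at 2 weeks. All 4 *in vivo* libraries were well below all 4 *in vitro* libraries, with log2 fold changes of -0.61 ± 0.08 (SE) at 1 week (limma, adjusted p = 0.000812) and -1.20 ± 0.08 at 2 weeks (adjusted p = 3.1e-05, 2.29-fold lower). *Tpm2*, on chr4:43514711-43523765, minus strand, encodes β-tropomyosin and moved far less. It was at 76.6 and 74.1 FPKM *in vivo* against 83.9 and 79.7 FPKM *in vitro* at 1 week, and at 57.7 and 64.6 FPKM *in vivo* against 76.9 and 78.5 FPKM *in vitro* at 2 weeks. The groups did not overlap, but the gap was small at 1 week, with log2 fold changes of -0.12 ± 0.07 (limma, adjusted p = 0.216) and, at 2 weeks, -0.35 ± 0.07 (adjusted p = 0.00552). *Lmod1*, on chr1:135324807-135368065, plus strand, encodes the leiomodin of smooth muscle. Its level was 6.38 and 5.77 FPKM *in vivo* against 10.9 and 11.5 FPKM *in vitro* at 1 week, and 9.85 and 9.11 FPKM *in vivo* against 17.9 and 17.1 FPKM *in vitro* at 2 weeks. *Lmod1* had the same ratio between sites at both weeks, -0.88 ± 0.08 each time on the log2 scale (limma, adjusted p = 0.000221 and 0.000169), 1.84-fold lower *in vivo*.

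*Des* encodes desmin, the intermediate filament of muscle cells, and lies on chr1:75360329-75368579, plus strand. Its level was 23.4 and 21.8 FPKM *in vivo* against 30.7 and 35.1 FPKM *in vitro* at 1 week, and 19.8 and 19.9 FPKM *in vivo* against 55.4 and 54.6 FPKM *in vitro* at 2 weeks. The heart libraries stayed near 20 FPKM while the later culture libraries were far above every other library. The log2 fold change was -0.54 ± 0.08 (SE) at 1 week (limma, adjusted p = 0.00157) and -1.47 ± 0.08 at 2 weeks (adjusted p = 1.4e-05), 2.76-fold lower *in vivo* and the largest difference of the set. Cardiomyocytes also express desmin, and the reprogramming factors carried by these cells are meant to switch on cardiomyocyte genes. The summed level of the 12 cardiomyocyte markers listed was 18.2 to 21.02 FPKM *in vivo* against 167 to 190 FPKM *in vitro* at 1 week and 27.6 to 49.1 FPKM against 1036 to 1228 FPKM at 2 weeks, and its part in the difference of *Des* or *Tpm1* was not tested. Among these markers *Ttn* was under 0.5 FPKM in all libraries. Of the 10 tested, 7 were lower *in vivo* at 1 week and 8 at 2 weeks, where 5.07% and 8.05% of all tested genes were lower. At 2 weeks 1 of them, the ventricular light chain gene *Myl2*, was higher *in vivo*, by 2.39 on the log2 scale, and it is named after its value was seen. Of 10 skeletal muscle markers 7 were under 0.5 FPKM in all libraries, the regulators *Myod1*, *Myog*, *Myf5* and *Myf6* among them. The 10 summed to 4.51 to 4.90 FPKM *in vivo* against 12.6 to 13.2 FPKM *in vitro* at 1 week and to 2.84 to 5.75 FPKM against 67.5 to 78.1 FPKM at 2 weeks, so that they too were lower *in vivo*. At 1 week 1 of the 3 tested was past the threshold, *Myl1*, a light chain of skeletal muscle, and at 2 weeks all 3 were, *Acta1*, *Tnnt3* and *Myl1* at -4.65, -1.27 and -6.82. Their part in the contractile values was not tested.

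**Figure D3:**
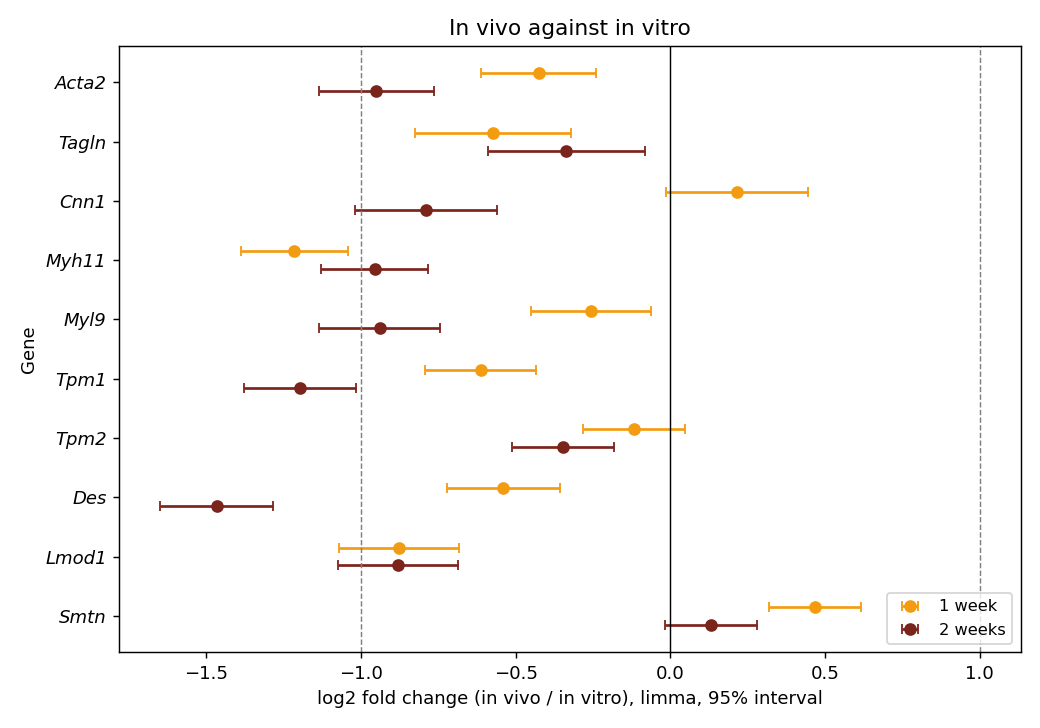
log2 fold change, *in vivo* over *in vitro* (horizontal axis), of the 10 contractile genes at 1 week and 2 weeks, as limma estimates with 95% intervals and dashed lines at 2-fold. At 2 weeks 9 estimates are below 0 with intervals that do not reach it, *Des* at -1.47 is the lowest, and *Smtn* at 0.13 is the exception.

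The gap between the sites differed between the weeks for some members and not measurably for others. In the interaction contrast, 1 of 10 genes, *Cnn1*, passed the threshold (1.73% of all tested genes did, 1.15% in the lower direction and 0.573% in the higher). Its log2 difference was -1.004 ± 0.14 (SE) (limma, adjusted p = 0.00845). This call was lost when any single library was left out, when the log2 difference lay between -1.13 and -0.88 with adjusted p-values from 0.0121 to 0.0453. With an adjusted p under 0.05 and no fold minimum, 5 of 10 genes had a gap that was further below 0 at 2 weeks (6.07% of all tested genes; 3.85% in the other direction, 9.92% either way). After *Cnn1* these were *Des* at -0.93 ± 0.11 (adjusted p = 0.00609), *Myl9* at -0.68 ± 0.12 (0.0166), *Tpm1* at -0.58 ± 0.11 (0.0217) and *Acta2* at -0.53 ± 0.11 (0.0329). For *Lmod1* the difference was -0.0038, with a 95% interval from -0.28 to 0.27, and for *Myh11* it was 0.26, with an interval from 0.01 to 0.51 and an adjusted p of 0.164. The count of 5 became 2 without *in vivo* 1 week replicate 1, either *in vitro* library of 1 week or *in vitro* 2 weeks replicate 1, 3 without *in vivo* 2 weeks replicate 1 or *in vitro* 2 weeks replicate 2, 3 with quantile normalization and 2 with no variance trend. Over the alternatives the adjusted p reached 0.124 for *Acta2*, 0.0968 for *Tpm1* and 0.0622 for *Myl9*.

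The time courses show where those differences between weeks lie. They use the same libraries as the comparisons above and are not independent of them. In culture, 1 of 10 genes was changed from 1 week to 2 weeks, *Myh11*, which rose by 1.14 ± 0.07 (SE) on the log2 scale (limma, adjusted p = 0.000306), or 2.20-fold, where 2.76% of all tested genes rose, 1.05% fell and 3.81% moved either way. With an adjusted p under 0.05 and no fold minimum, 7 of 10 were higher at 2 weeks in culture (14.1% of all tested genes) and 0 were lower (11.0%, and 25.1% either way). Besides *Myh11* these were *Cnn1* at 0.86 ± 0.10 (adjusted p = 0.00173), *Myl9* at 0.80 ± 0.08 (0.00133), *Des* at 0.74 ± 0.08 (0.00138), *Lmod1* at 0.64 ± 0.08 (0.00289), *Tpm1* at 0.41 ± 0.08 (0.0104) and *Smtn* at 0.37 ± 0.06 (0.00791). *Acta2* was at 0.02, with a 95% interval from -0.16 to 0.21. *Tagln* was at 0.15 and *Tpm2* at -0.07, with adjusted p-values of 0.359 and 0.480.

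In the heart the same interval gave another picture. Again 1 of 10 genes was changed, *Myh11*, which rose by 1.40 ± 0.07 (SE) on the log2 scale (limma, adjusted p = 0.000499), or 2.64-fold, where 1.23% of all tested genes rose, 0.949% fell and 2.18% moved either way. That call was lost without *in vivo* 1 week replicate 1, which leaves 1 library in that group (1.43, adjusted p = 0.0101, with 11 genes called in all). With an adjusted p under 0.05 and no fold minimum, 2 of 10 were higher (8.59% of all tested genes) and 2 of 10 lower (7.17%, and 15.8% either way). *Lmod1* was higher at 2 weeks by 0.63 ± 0.08 (adjusted p = 0.00469), almost the same as in culture. Over the alternatives its limma adjusted p reached 0.0611. When only the 4 heart libraries were fitted, *Myh11* was the only member higher at an adjusted p under 0.05. *Acta2* was lower by -0.50 ± 0.08 (adjusted p = 0.0091) and *Tpm2* by -0.30 ± 0.07 (adjusted p = 0.0299). Neither had an adjusted p under 0.05 without *in vivo* 1 week replicate 1 or when only the 4 heart libraries were fitted, and 1 of them did with the replicate block, with no filter, with no variance trend, without *in vivo* 1 week replicate 2, and without any 2-week library other than *in vivo* replicate 2. Over the alternatives the adjusted p reached 0.0711 for *Acta2* and 0.143 for *Tpm2*. The other 6 genes lay between -0.19 for *Des* and 0.38 for *Tagln*, with adjusted p-values of 0.0539 or more. When only the 4 libraries of a site were fitted, 0 genes of the table passed in either time course with limma. In that fit 5992 genes in culture and 4198 in the heart had an unadjusted p under 0.05, while limma voom on the recovered fragments of all 8 libraries called 863 and 505. *Myh11* then had adjusted p-values of 0.0153 and 0.0335.

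**Figure D4:**
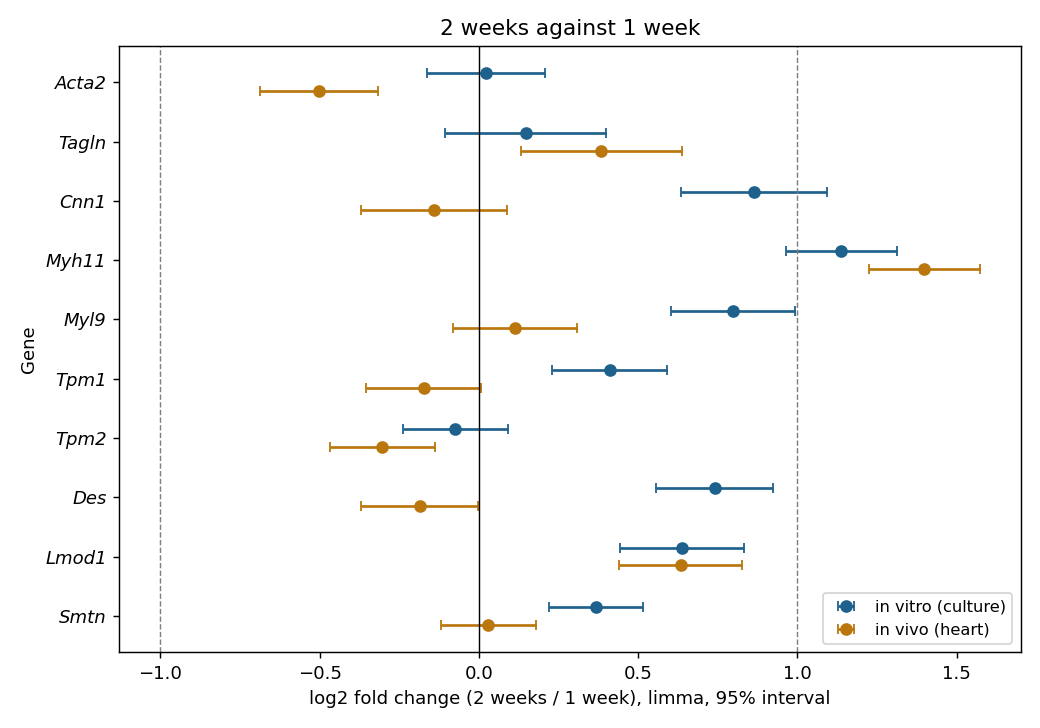
log2 fold change, 2 weeks over 1 week (horizontal axis), of the 10 contractile genes in culture and in the heart, as limma estimates with 95% intervals and dashed lines at 2-fold. *Myh11* and *Lmod1* are above 0 at both sites, *Cnn1*, *Myl9* and *Des* are above 0 in culture and near 0 in the heart, and *Acta2* is near 0 in culture and at -0.50 in the heart.

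Over both weeks, with 4 libraries a site and week as a covariate, 2 of 10 genes were changed, *Myh11* at -1.09 ± 0.07 (SE) (limma, adjusted p = 1.8e-05) and *Des* at -1.003 ± 0.18 (adjusted p = 0.00221). Of all tested genes 6.74% were lower, 8.63% higher and 15.4% either. With an adjusted p under 0.05, 8 were lower (25.8% of all tested genes) and *Smtn* was higher at 0.30 ± 0.08 (25.0%, and 50.7% either way), while *Cnn1* at -0.29 ± 0.19 had an adjusted p of 0.249. Without the scaling between libraries *Smtn* was at -0.04, 5 contractile genes were changed and lower, where 12.1% of all tested genes were lower, and of all changed genes 34.0% in place of 56.1% were higher *in vivo*. *Des* no longer passed the 2-fold minimum when any library of 2 weeks was left out (-0.91 each time).

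The known regulators of the programme had median changes nearer to 0 than the contractile genes. *Myocd*, whose fragments can come from the lentiviral cDNA as well as from the chromosome, was at 2.11 and 2.10 FPKM *in vivo* against 3.83 and 4.52 FPKM *in vitro* at 1 week, and at 1.75 and 1.96 FPKM *in vivo* against 4.77 and 4.14 FPKM *in vitro* at 2 weeks. All *in vivo* libraries were below all *in vitro* libraries, by -0.95 ± 0.13 (SE) on the log2 scale at 1 week (limma, adjusted p = 0.00142) and by -1.22 ± 0.13 at 2 weeks (adjusted p = 0.00035), where it was past the threshold. Whether the level of *Myocd* has a part in that of the contractile genes was not tested. Of the 14 tested genes among SRF, its cofactors and other regulators, 0 were changed at 1 week with limma, and voom called 0. Of the 14, 7 had an adjusted p under 0.05 (3 higher, 4 lower) and 9 an unadjusted p under 0.05. Of all 15708 tested genes, 6605 and 7942 had these. At 2 weeks *Myocd* was lower and 2 others were higher, *Wwtr1*, which encodes the TEAD cofactor TAZ, at 1.10, and *Klf4*, a repressor of smooth muscle genes in vessels, at 1.07. Of all tested genes 9.02% were higher and 8.05% lower at 2 weeks. Counting an adjusted p under 0.05 alone, 3 of the 14 were higher and 5 lower at 2 weeks (24.6% and 25.2% of all tested genes). *Srf* was among the lower ones, as given under the other observations. The median over the regulators was -0.18 at 1 week and 0.03 at 2 weeks, where single genes lay from -1.22 to 1.10.

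Other genes of smooth muscle contraction went both ways. Of 24 such genes, all tested, the test at 1 week found 5 higher and 2 lower *in vivo*, and that at 2 weeks 4 higher and 3 lower. Counting an adjusted p under 0.05 alone, 7 were above and 7 below the culture level at 1 week, then 7 above and 9 below at 2 weeks. Of the 24 log2 fold changes 14 were below 0 at each week, with medians of -0.13 and -0.11. The highest were *Csrp2*, a LIM protein of smooth muscle, at 4.17 and 3.13 on the log2 scale, and *Pdlim3*, an α-actinin partner, at 1.24 and 1.35. The lowest were *Itga8*, an integrin of mesenchymal and smooth muscle cells, at -2.38 and -1.65, and *Rbpms*, an RNA-binding protein that controls splicing in smooth muscle, at -1.27 and -1.39. *Csrp2* was at 169 and 159 FPKM *in vivo* against 8.83 and 9.19 FPKM *in vitro* at 1 week.

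Relatives of the 10 genes that serve non-muscle, cardiac or skeletal cells were more often above 0 than below. At 1 week 2 of the 21 tested were past the threshold on the higher side *in vivo* and 1 on the lower, and at 2 weeks there were 3 of each. The threshold was passed by 7.79% of all tested genes as higher and 5.07% as lower at 1 week, then by 9.02% and 8.05%. At an adjusted p under 0.05, the 1-week comparison had 14 on the higher side with 2 on the lower, the 2-week comparison 10 with 6. The shares of all tested genes were then 21.4% with 20.6%, and 24.6% with 25.2%. The list had medians of 0.42 and 0.30. *Tagln2*, the non-muscle transgelin, was higher at 1 week by 1.29 on the log2 scale, while *Vim*, the intermediate filament of fibroblasts, and *Myl12b*, a non-muscle light chain, were higher at 2 weeks by 1.46 and 1.37. The lower ones were *Actc1*, the actin of the heart, at -3.43 and -5.84 and, at 2 weeks, *Acta1*, the actin of skeletal muscle, at -4.65 and *Tmod1*, which caps actin filaments in striated muscle, at -2.26. *Acta2* and *Actc1* both encode α-actins. *Actc1* was at 34.7 and 38.0 FPKM in the culture libraries at 1 week and at 324 and 288 FPKM at 2 weeks, against 6.66 FPKM or less in every heart library, a change that *Acta2* did not share.

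The matrix genes of activated fibroblasts took the opposite direction to the contractile genes. Of 14 such genes, 12 were higher *in vivo* at 1 week and 13 at 2 weeks, with 0 lower at either time. Of all tested genes 7.79% and 9.02% were higher, and 5.07% and 8.05% lower. The medians of the 14 were 2.30 and 3.07 on the log2 scale. This list was chosen with earlier results of these data known. The study itself had reported *Col1a1*, *Col3a1* and *Fn1*, which are in the list, as higher *in vivo*. *Cthrc1*, a secreted marker of activated cardiac fibroblasts, was higher by 4.28 and 5.68, and *Ltbp2*, a latent TGF-β binding protein, by 3.90 and 4.07. From 1 week to 2 weeks in culture 6 of 14 matrix genes were lower and 0 higher (1.05% and 2.76% of all tested genes). The median of the 14 was -0.83, where that of the contractile genes was 0.52. Among the 6 were *Cthrc1* at -2.11 and *Lox*, the collagen crosslinking enzyme, at -1.48. Adhesion and actin genes that respond to SRF or to tension were mixed, with 3 of 14 higher at 1 week, 2 of 14 higher at 2 weeks, and 1 lower each time. *Ctgf* was higher *in vivo* by 3.16 and 2.60 and *Palld*, which crosslinks actin, by 1.92 and 1.01, while *Ankrd1*, a muscle stress protein, was lower by -2.04 and -3.19.

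**Figure D5:**
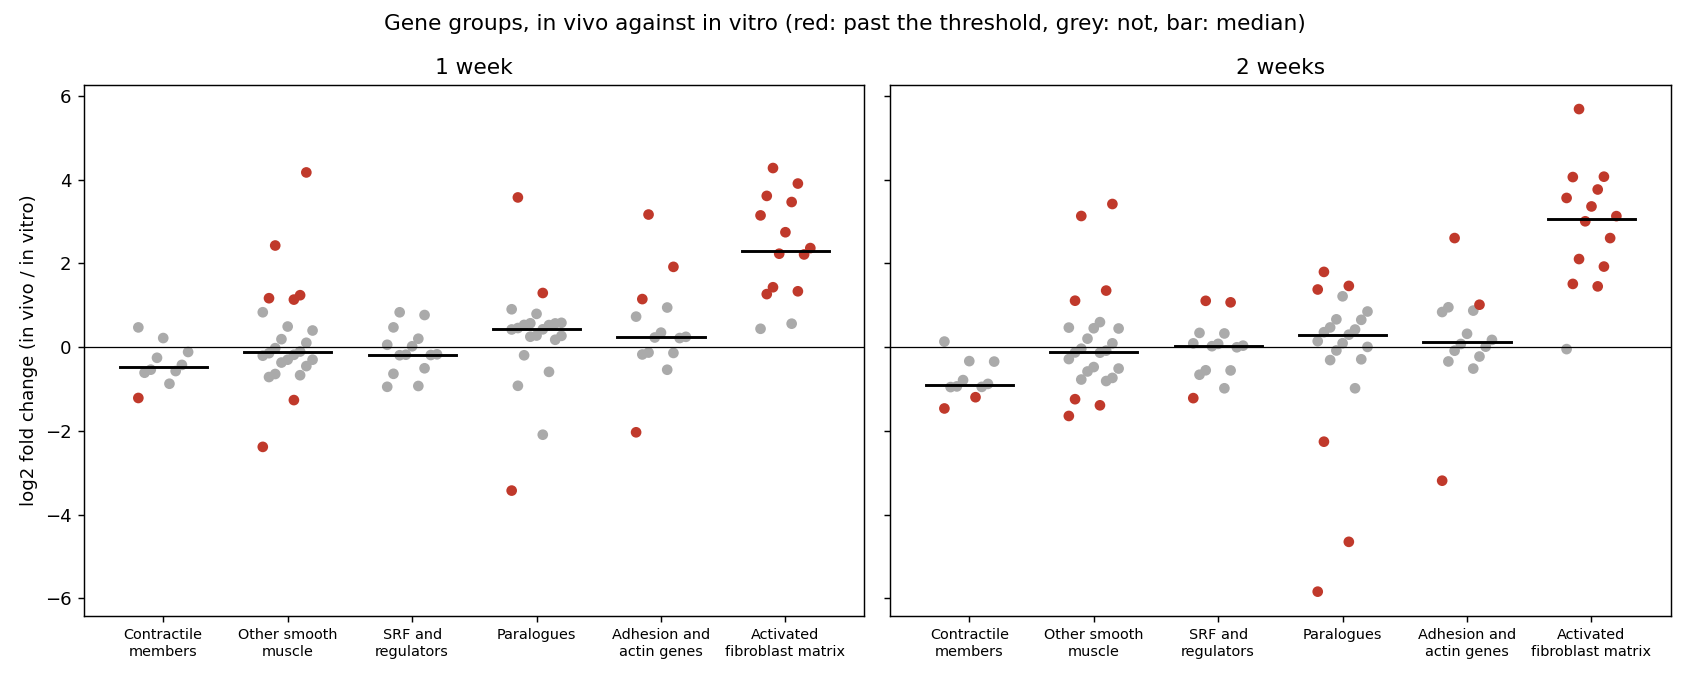
log2 fold change, *in vivo* over *in vitro* (vertical axis), of each tested gene in 6 groups at 1 week and 2 weeks, with genes past the threshold in red, others in grey and the median as a bar. The contractile genes have medians of -0.48 and -0.91, the activated fibroblast matrix genes 2.30 and 3.07. The other groups have medians between -0.18 and 0.42.

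Markers of other cell types moved between the groups as well, and their part in the contractile values was not tested. Pericytes and vascular smooth muscle cells carry the contractile genes, and of 10 mural markers 6 were past the threshold on the higher side *in vivo* at 1 week and 1 on the lower side, among them *Rgs5* at 3.86 and *Cspg4* at 1.93 higher and *Notch3* at -1.54 lower. At 2 weeks 2 were higher, *Rgs5* at 1.14 and *Cspg4* at 2.48, and 3 lower, *Notch3* at -1.31, *Abcc9* at -1.09 and *Kcnj8* at -1.02, with a median over the 10 of -0.00078 in place of 1.78. The summed mural level was 296 FPKM in both *in vivo* libraries against 233 to 239 FPKM *in vitro* at 1 week, and 258 to 272 FPKM against 244 to 256 FPKM at 2 weeks, and *Pdgfrb* and *Ndufa4l2* made up much of it. Of 7 endothelial markers 6 were higher *in vivo* at 1 week and 3 at 2 weeks. Their summed level was 74.6 to 82.4 FPKM *in vivo* against 20.1 to 21.1 FPKM *in vitro* at 1 week. At 2 weeks it was 66.0 to 72.6 FPKM against 40.4 to 47.8 FPKM. From 1 week to 2 weeks in culture 4 of 10 mural and 4 of 7 endothelial markers passed the threshold as higher, and 0 as lower. Of all tested genes 2.76% rose and 1.05% fell. In the heart 0 markers of either list passed. The 8 macrophage and blood cell markers summed to 1462 to 2298 FPKM *in vivo* and 3822 to 4955 FPKM *in vitro*, most of it from *Lyz2*, the lysozyme gene, at -1.45 and -1.60 on the log2 scale. Of the 8, at 1 week *Fcgr1* was higher (2.61) and *Lyz2* lower, while *C1qa*, *Csf1r* and *Ptprc* lay between -0.01 and 0.15. At 2 weeks 3 passed the threshold as lower, *Lyz2*, *Cd68* and *Adgre1*, and 0 as higher. Counting an adjusted p under 0.05 alone, 3 of the 8 were lower and 1 higher at 1 week, and 5 and 1 at 2 weeks. Of all tested genes 20.6% were lower and 21.4% higher at 1 week, and 25.2% and 24.6% at 2 weeks. The medians of the 8 were -0.18 and -0.76. The 9 fibroblast markers, listed to check the labelled cell type, summed to 8910 to 11380 FPKM *in vivo* and 2016 to 3065 FPKM *in vitro*. At each week 5 passed the threshold as higher, *Col1a1*, *Col1a2*, *Col3a1*, *Dcn* and *Lum*, and 0 as lower. *Col1a1* and *Col3a1* are also among the matrix genes above and made up much of the sum, which is thus no separate check. With an adjusted p under 0.05 alone, 6 were higher and 2 lower at 1 week, and 7 and 1 at 2 weeks. None of the 9 was under 0.5 FPKM in all libraries.

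The members were also compared by the shape of their profiles over the 8 libraries. The measure is the root-mean-square difference of log2 values after each gene was centred on its own mean, and it is a description with no test. The closest pair was *Tpm1* and *Des* at 0.15, followed by *Cnn1* and *Myl9* at 0.20 and *Acta2* and *Tpm1* at 0.21. The farthest pair was *Myh11* and *Smtn* at 0.89. Among 7100 other protein-coding genes with a mean of at least 5 FPKM, the profile most like that of *Acta2* was *Bysl* (0.06), followed by *Cdk4* (0.08) and *Natd1* (0.08). For *Myh11* the nearest were *Bcam* (0.21), *Smad6* (0.27) and *F3* (0.28), and for *Des* they were *Tifa* (0.08), *Cd82* (0.08) and *F11r* (0.11).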

How the data were processed

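RNA of eGFP+ cells was sequenced in 8 libraries, 4 groups of 2 set by the labels. The deposited values are FPKM per gene, made for the authors by a sequencing provider. The submitters' processing notes name CASAVA, HISAT2 2.0.5 and mm10, and the counting tool is not given in the sources used here. Multiplied by gene length, 100% of values above 0 were whole multiples of 1 step per library (tolerance 0.05 of a step), so fragments could be recovered. The size behind the FPKM was 0.863 to 0.915 times the fragments counted *in vivo* and 1.09 to 1.15 times *in vitro*. Replicates differed by more than sampling noise (chi-square per gene from 4.25 to 9.22).

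All libraries were fitted with limma 3.58.1 (R 4.3.3, moderated variances with a trend) on log2(FPKM + 0.1). The threshold was an adjusted p under 0.01 and over 2-fold. The study states these limits for a P value and for upregulated genes, and its own count-based test was not run on these FPKM. Gene lists and the naming rule (all 10 members, and of each other list up to 2 rises and 2 falls, the largest past the threshold with at least 5 FPKM in the higher group and no overlap, plus *Myocd*) were chosen with earlier results of these data known. Alternatives were other pseudocounts, filters and scalings, no variance trend, limma voom, the replicate block, only the libraries compared, another threshold and each library left out. Gene positions are those of the table. Of its identifiers shared with GENCODE vM21 98.3% had the same start and end, though not *Acta2*. Python 3.11.15, pandas 2.3.3 and matplotlib 3.10.9 were used. Fragment counts carry counting error only, and PCR copies are not independent molecules.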

Additional observations from a re-analysis of the deposited data

Results flagged for a closer look

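For *Cnn1*, the calponin gene, the difference between the sites was itself tested between the weeks, and it passed the threshold in the fit reported but in only 3 of 17 alternatives. It was 15.9 and 14.5 FPKM *in vivo* against 12.9 and 13.2 FPKM *in vitro* at 1 week and 15.02 and 12.6 FPKM against 24.4 and 23.3 FPKM at 2 weeks. The log2 fold change, *in vivo* over *in vitro*, was 0.22 at 1 week and -0.79 at 2 weeks, and the difference between them was -1.004 (limma interaction contrast, adjusted p = 0.00845), 2.01-fold and so only just past the 2-fold minimum. The call was lost in the other 14, among them the replicate block (adjusted p = 0.0156) and each library left out in turn (0.0121 to 0.0453). Over the alternatives the adjusted p ran from 0.000715 to 0.0453 and the log2 difference from -1.13 to -0.88. In culture both libraries of 2 weeks were above both of 1 week, and in the heart the libraries of the 2 weeks overlapped.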

How the results depend on the processing

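With an adjusted p under 0.05 and no fold minimum, 8, 9, 5, 7, 4 and 9 contractile genes passed at 1 week, at 2 weeks, in the difference between weeks, in culture over time, in the heart over time and over both weeks, of 6605, 7825, 1558, 3942, 2476 and 7969 genes. Without scaling beyond the fragments on genes, 2, 7 and 5 members passed at 1 week, at 2 weeks and over both weeks (2468, 3126 and 2873 genes). With quantile normalization 4 passed at 2 weeks, 5 over both weeks and 0 in culture over time (2620, 2448 and 564 genes). With pseudocount 1, 1 member (of 1503 genes) passed over both weeks. In the difference between weeks (1 member, 271 genes) 0 members passed with limma with pseudocount 1, no filter (72 genes), quantile normalization, no scaling, no variance trend (71 genes), the replicate block (27 genes, 6 members at an unadjusted p under 0.05) or any library left out (2 to 86 genes), and voom called 1 member and 473 genes. With only the 4 libraries compared, 0 members and 0 genes passed in either time course. Leaving out a library gave 198 to 555 genes in culture over time, 0 to 1 members and 11 to 221 genes in the heart over time, and 1 to 2 members over both weeks, with a lone library assumed to vary like the others. Voom called the same members in every comparison.

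Without scaling, these values changed sign: *Cnn1* at 1 week (-0.13), *Smtn* at 2 weeks (-0.20), over both weeks (-0.0357) and over time in the heart (-0.0106), *Acta2* over time in culture (-0.0281) and *Lmod1* between weeks (0.00576). So did, with quantile normalization, *Lmod1* between weeks (0.0684), *Acta2* in culture (-0.12) and *Myl9* (-0.0793) and *Smtn* (-0.00801) in the heart, and with voom *Lmod1* between weeks (0.00275). Leaving out a library gave -0.0748 to 0.0672 for *Lmod1* between weeks, -0.035 to 0.0812 for *Acta2* in culture and -0.0252 to 0.0844 for *Smtn* in the heart. The cause was not tested. None of these had an adjusted p under 0.05 in the fit reported apart from *Smtn* over both weeks.

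Replicate numbers were not treated as pairs: differences between replicates correlated by -0.02 between the sites at both weeks. The replicate block kept every member's call except *Cnn1* between weeks. With 2 libraries a group and *Tagln* at 73 to 160 fragments, changes well under 2-fold are at the limit of these data.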

Other observations

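The following genes were chosen after their values were seen. *Actb*, the non-muscle β-actin, was at 533 and 542 FPKM *in vivo* against 588 and 646 FPKM *in vitro* at 1 week and at 360 and 399.9 FPKM against 748 and 752 FPKM at 2 weeks. Its log2 fold change was -0.20 at 1 week (limma, adjusted p = 0.0968) and -0.98 at 2 weeks (adjusted p = 1.0e-04), the latter close to the -0.95 of *Acta2*. *Actg1*, the γ-actin, was at 0.45 (adjusted p = 0.00159) and -0.29 (adjusted p = 0.00889).

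*Csrp1*, a LIM protein of smooth muscle and a relative of *Csrp2*, was at 175 and 173 FPKM *in vivo* against 193 and 193 FPKM *in vitro* at 1 week and at 161 and 157 FPKM against 376 and 377 FPKM at 2 weeks. Its log2 fold change at 2 weeks was -1.25 (limma, adjusted p = 5.4e-06), where that of *Csrp2* was 3.13. *Srf* was at 0.05 at 1 week (limma, adjusted p = 0.633) and -0.55 at 2 weeks (adjusted p = 0.00157), and it was higher at 2 weeks than at 1 week in culture by 0.77 (adjusted p = 0.00155). The 36.7 and 36.1 FPKM of *Srf* in culture at 2 weeks were the highest of the 8 libraries.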
